A study of Mus musculus with 2 samples.

Results

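The 7 genes described here are members of the ephrin-A/EphA system, followed through the cells of the embryonic mouse cortex: the ligand genes Efna2, Efna3 and Efna5 and the receptor genes Epha3, Epha4, Epha5 and Epha7. They were taken by symbol, and all 7 were found among the 32285 genes of the expression matrices. The dorsal telencephalon of EomesDot control embryos (genotype WT) had been dissected at embryonic day 14.5, dissociated with papain and profiled by droplet-based 3′ single-cell RNA sequencing, in which each captured transcript is counted once by its unique molecular identifier (UMI). The labels name the EomesDot line, whereas the study describes C57BL/6J embryos, and neither says whether a library is 1 embryo or a pool. The series holds 1 condition and 2 libraries, numbered 2 and 4 in the labels, so the comparisons made here are between cell classes, each represented by 1 sum of UMIs per library (n = 2). Statements on error therefore cover the spread between those libraries alone.

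Ephrin-A ligands are tethered to the outer cell membrane by a lipid anchor, and EphA receptors are transmembrane tyrosine kinases, so a signal passes only where cells touch. Binding can repel the receptor-bearing cell by remodelling its actin cytoskeleton, or promote adhesion, and ligand and receptor on the same membrane can dampen each other. In the developing telencephalon the family is known for axon guidance, for borders between regions and for guiding migrating neurons, including cortical interneurons (cINs) on their way from the medial ganglionic eminence (MGE). Radial glial cells (RGCs) are the neural stem cells of the cortical wall, and intermediate progenitor cells (IPCs) are their daughters that divide into excitatory neurons.

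In the mm10 (GRCm38) genome used for the counts, the members lie on separate chromosomes: Efna2 at chr10:80179482-80190010, Efna3 at chr3:89313899-89322939, Efna5 at chr17:62602957-62881317, Epha3 at chr16:63543532-63864175, Epha4 at chr1:77367182-77515107, Epha5 at chr5:84054761-84417818 and Epha7 at chr4:28813066-28967503 (RefSeq, GRCm38.p6). The 250 bases before an annotated RefSeq transcript start of Epha3 and Epha4 are shown because both receptors were lower in deep-layer than in newborn excitatory neurons, as described further on. CG dinucleotides, the usual target of DNA methylation in mammals, are in capitals.
Epha3 (chr16:63864176-63864425, minus strand): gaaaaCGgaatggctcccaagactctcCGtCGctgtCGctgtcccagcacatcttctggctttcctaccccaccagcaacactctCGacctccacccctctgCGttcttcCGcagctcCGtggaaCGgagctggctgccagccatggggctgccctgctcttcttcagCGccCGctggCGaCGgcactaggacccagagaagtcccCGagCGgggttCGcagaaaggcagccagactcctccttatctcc
Epha4 (chr1:77515089-77515338, minus strand): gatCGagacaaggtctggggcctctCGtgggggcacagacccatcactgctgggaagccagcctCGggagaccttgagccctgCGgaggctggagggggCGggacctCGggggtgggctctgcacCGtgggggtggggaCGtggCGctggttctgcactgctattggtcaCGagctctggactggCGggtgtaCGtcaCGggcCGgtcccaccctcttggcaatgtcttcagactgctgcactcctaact
The Epha3 window held 16 CG dinucleotides and the Epha4 window 14, against a median of 6 over the same windows of 32851 RefSeq starts. The last bases of the Epha4 window lie inside the span of the gene given above, whereas the Epha3 window ends where its gene begins. The corresponding window of Epha5, which was also lower in deep-layer neurons, lies wholly inside the annotated gene and held 20. The letters CAGATG, the E-box bound by proneural factors such as Neurog2 (CATCTG on the other strand), were found in 1 of the 9 windows of the members, that of an Efna3 start, and in 14.4% of all windows. The letters TCACACC of the T-box (GGTGTGA on the other strand) were found in 0 of the 9 and in 3.33% of all. A match is only a match of letters.

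The libraries held 40267872 and 49422007 UMIs, and 3153 of 4301 barcodes were retained (1197 and 1956), with a median of 30810 and 22949 UMIs per cell. 3 barcode sequences occurred in both libraries, 1 of them among the retained cells. Cells were clustered without any ephrin or Eph gene and named from marker lists. This gave 324 and 492 RGC-like cells, 187 and 292 IPC-like cells, 521 and 811 excitatory neuron-like cells and 54 and 84 MGE interneuron-like cells, besides smaller classes. The markers sorted as their names require: the 8 IPC genes summed to 2367 and 2401 CPM in the IPC-like cells and to 399 and 340.1 CPM in the RGC-like cells, and the 11 MGE interneuron genes to 12158 and 11912 CPM in the MGE interneuron-like cells and to 153 and 214 CPM in the excitatory neuron-like cells. The names were rebuilt here and may differ from those of the study. The libraries stood apart in their GABAergic cells. Striatal projection neuron-like cells numbered 1 in replicate 2 and 69 in replicate 4, and CGE interneuron-like cells 5 and 32, so neither class was tested. Levels are given as CPM (UMIs of the gene scaled to a class total of 1000000), for replicate 2 first and replicate 4 second. They were compared between classes but not between genes, since 3′ counts depend on the transcript.

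**Figure D1:**
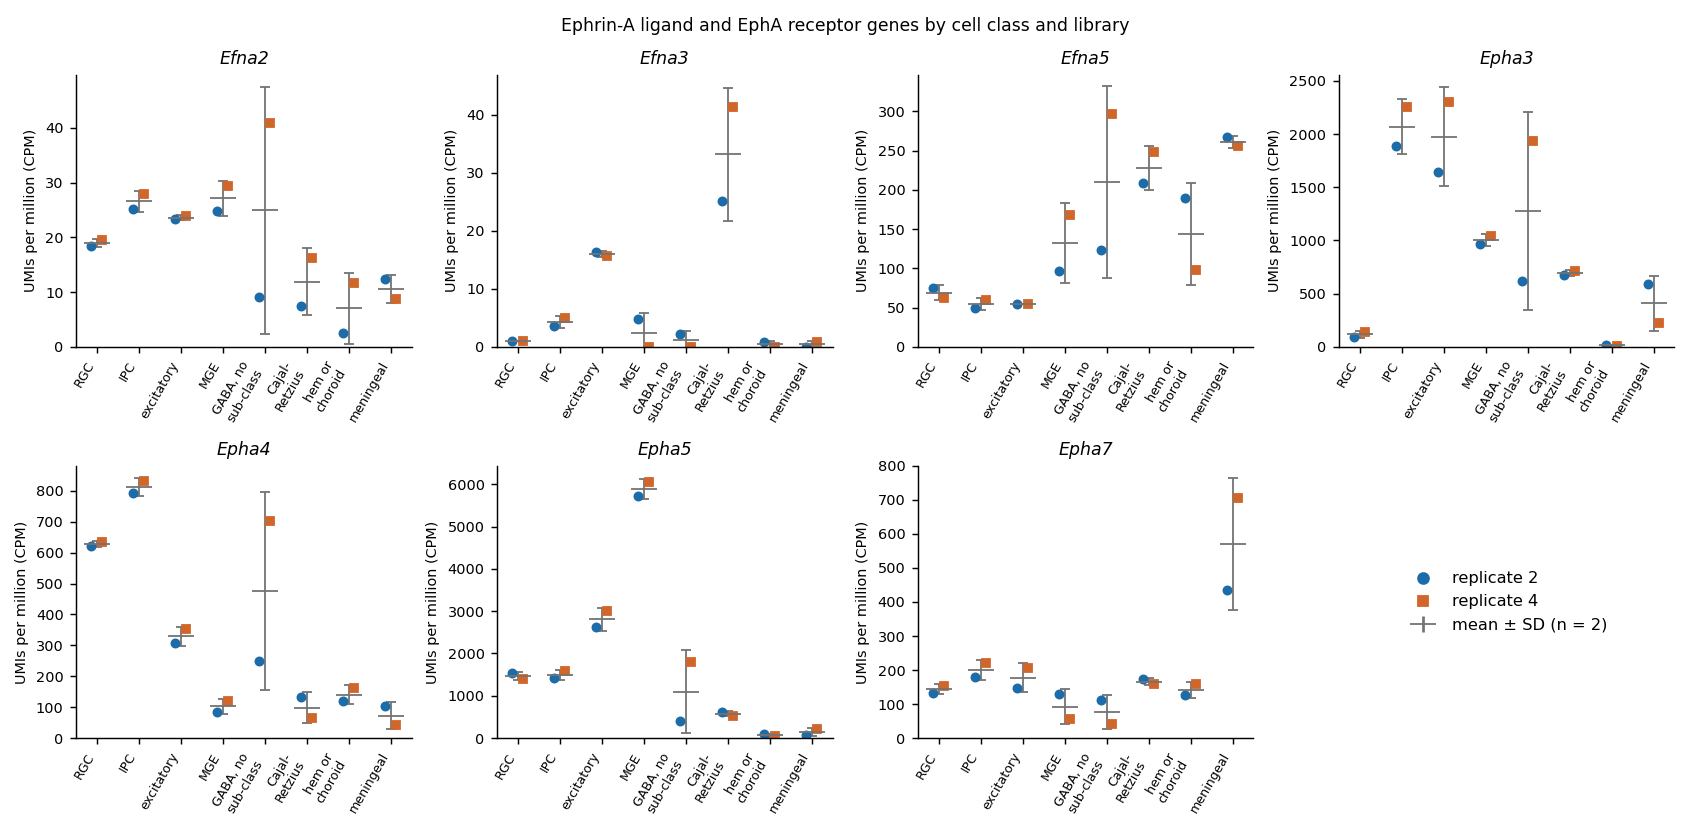
Level of each ligand and receptor gene in 8 cell classes (x axis), in CPM (y axis, a separate linear scale for each gene); circles are replicate 2, squares replicate 4, and the grey mark with its bar is the mean ± SD (n = 2). Among these 8 classes Epha5 is highest in the MGE interneuron-like cells, Epha3 is near its lowest in the RGC-like cells, and Efna3 is highest in the Cajal-Retzius-like cells.

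Across the 4 large classes the members did not move as a block. Epha3 rose steeply from RGCs to IPCs, Efna3 rose in steps from RGCs to IPCs to excitatory neurons, and Epha4 was lower and Epha5 and Efna5 were higher in MGE interneurons than in RGCs and IPCs. All 7 genes passed the filter on low counts and were tested with edgeR's quasi-likelihood test, with Benjamini-Hochberg adjustment over all 12933 genes, and members are said to be called where the adjusted p fell below 0.05. Between IPC-like and RGC-like cells 2 of the 7 members were called, where 32.8% of all genes were. Between excitatory neuron-like and IPC-like cells 1 was called (34.4% of all genes), and between excitatory neuron-like and RGC-like cells 2 were (53.7% of all genes). MGE interneuron-like cells differed from excitatory neuron-like cells in 3 members (20.2% of all genes), from RGC-like cells in 4 (50.6%) and from IPC-like cells in 3 (38.4%). These shares lie on both sides of the background, so the counts say little about the family as such, and the single genes carry the description. The comparisons share class sums and are not independent of each other. Of the genes called between MGE interneurons and excitatory neurons, 33.7% were higher in MGE interneurons under the normalization used here (TMM), and 45.0% under DESeq2 size factors. The median log2 fold change of all genes in that comparison was -0.12 and -0.01 respectively, and for excitatory neurons against RGCs it was 0.08 and -0.05. No called member changed direction with the size factors.

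**Figure D2:**
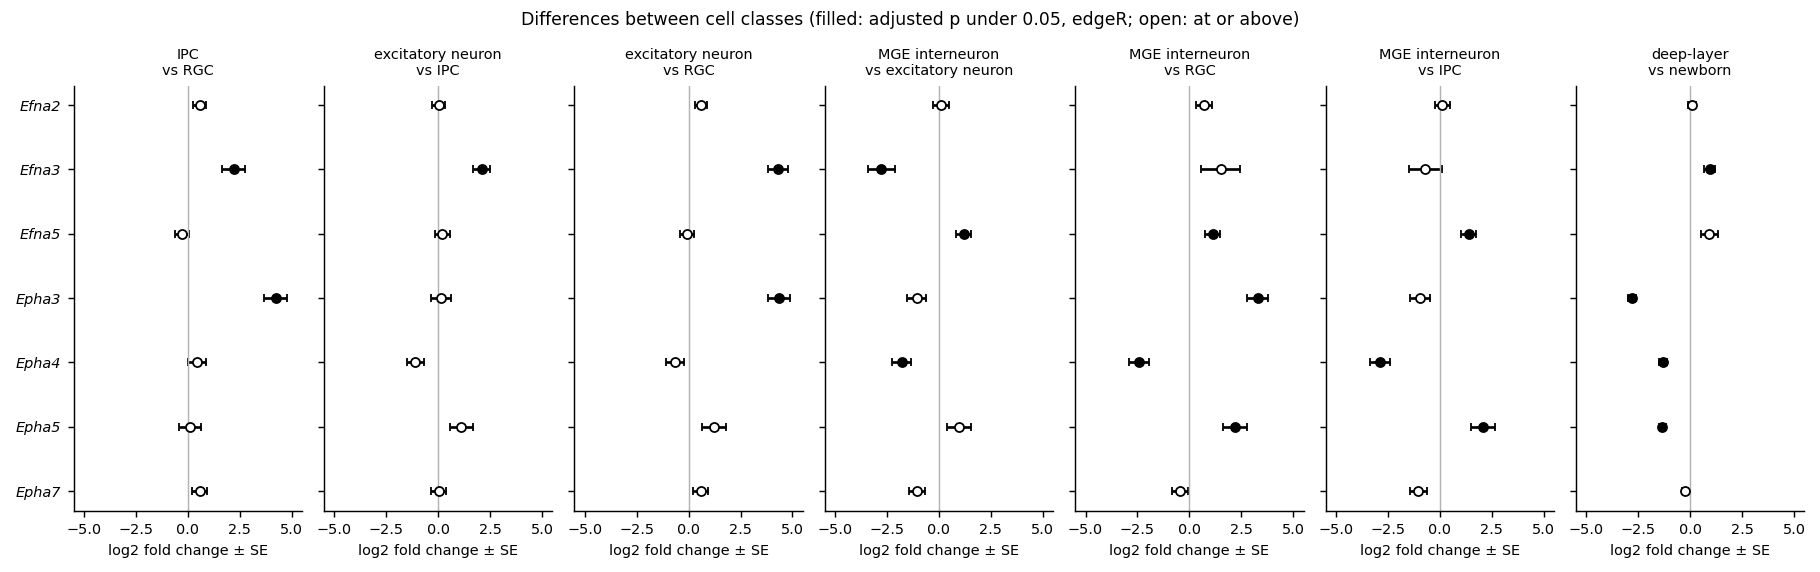
Log2 fold change of each member (points) with its standard error (bars) in 7 comparisons of cell classes, from edgeR; filled points have an adjusted p under 0.05. Epha3 lies to the right in every comparison with the RGC-like class and to the left in deep-layer against newborn neurons, and Epha4 lies to the left in all 3 comparisons of the MGE class.

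Of the ligands, Efna2 varied least among the 4 large classes. RGC-like cells held 18.4 and 19.5 CPM, IPC-like cells 25.2 and 27.9 CPM, excitatory neuron-like cells 23.3 and 23.9 CPM and MGE interneuron-like cells 24.9 and 29.4 CPM. RGC-like cells were lowest in both libraries, and the IPC-like and MGE interneuron-like sums overlapped. None of its differences passed the test: the widest, MGE interneuron-like against RGC-like, had a log2 fold change 0.69, SE 0.38, adjusted p = 0.151 by edgeR. The levels in the Cajal-Retzius-like, meningeal-like and hem or choroid plexus-like cells, 11.9 ± 6.15 CPM, 10.5 ± 2.56 CPM and 7.07 ± 6.48 CPM (SD, n = 2), were below those of all 4 large classes and did not differ among themselves beyond their spread.

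Efna3 rose in steps along the excitatory lineage. RGC-like cells held 1.01 and 0.938 CPM and IPC-like cells 3.52 and 5.03 CPM, and the libraries of the classes did not overlap. The rise was called by edgeR (log2 fold change 2.20, SE 0.54, adjusted p = 0.00781), though the call was lost with at most 5% mitochondrial UMIs (adjusted p = 0.073). Excitatory neuron-like cells held 16.4 and 15.6 CPM, a further rise over IPC-like cells (log2 fold change 2.09, SE 0.42, adjusted p = 0.00187 by edgeR). Within the IPC-like class the gene was uneven. The cluster led by Eomes, Unc5d and Mfap4 held 12.6 and 13 CPM, a level like that of the newborn neurons, while the other 3 IPC-like clusters stayed at or below 4.52 CPM in each library. That cluster had 9 of 13 excitatory neuron markers raised, beside 6 of 8 IPC markers. By cell cycle phase, G1-like cells gave 18 and 32 of the 20 and 36 Efna3 UMIs of the class. The S-like cells gave 1 and 0 and the G2/M-like cells 1 and 4. The step to IPC-like cells is therefore not shown for dividing cells. In MGE interneuron-like cells only 6 and 0 UMIs were counted (4.82 and 0 CPM), at or near the level of 3 UMIs, 2.41 and 2.6 CPM. The difference from excitatory neuron-like cells was called by edgeR (adjusted p = 0.00921), and in replicate 2, where the gene was counted in both classes, the log2 ratio with 1 CPM added was -1.58. The highest level of any class was that of the Cajal-Retzius-like cells, the Reln-producing neurons of the marginal zone, with 25.1 and 41.3 CPM from 15 and 22 cells. The size of the Efna3 folds moved with the processing by more than 1.5 times. From RGC-like to IPC-like cells the log2 fold change lay between 1.61 (at most 5% mitochondrial UMIs) and 3.22 (barcodes of at least 500 genes), and from IPC-like to excitatory neuron-like cells between 1.45 and 2.96 under the same settings in reverse order. As a log2 ratio with 1 CPM added, the first was 1.17 in replicate 2 alone and the second 1.46 in replicate 4 alone. The ratio of MGE interneuron-like to excitatory neuron-like cells was -4.05 in replicate 4 alone, where 0 UMIs were counted in the MGE class, and the fold -3.46 with classes drawn from part of the UMIs and tested on the rest.

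Efna5, a ligand known for repelling axons in topographic maps, was higher in MGE interneurons than in the excitatory lineage. The MGE interneuron-like sums were 96.4 and 168 CPM, against 54.3 and 54.2 CPM in excitatory neuron-like, 48.8 and 59.5 CPM in IPC-like and 75.5 and 62.7 CPM in RGC-like cells. Both MGE sums lay above every sum of the other 3 classes, but the MGE libraries differed from each other by more than those of any of them. edgeR called the difference from IPC-like cells (log2 fold change 1.39, SE 0.37, adjusted p = 0.00983), from RGC-like cells (log2 fold change 1.12, SE 0.37, adjusted p = 0.0217) and from excitatory neuron-like cells (log2 fold change 1.18, SE 0.36, adjusted p = 0.0366). Against RGC-like cells the log2 ratio with 1 CPM added was 0.35 in replicate 2 and 1.41 in replicate 4, and the call was lost with at most 5% mitochondrial UMIs (adjusted p = 0.104). Among excitatory neurons, IPCs and RGCs no difference in Efna5 was called. Levels outside the excitatory lineage are given without a test. The meningeal-like cells held 267 and 256 CPM, the Cajal-Retzius-like cells 209 and 248 CPM, and the striatal projection neuron-like cells of replicate 4 282 CPM, with 41.6% of the 315 UMIs from 1 cell. A sub-cluster of 17 GABAergic cells led by Sst and Sgcz, found only in replicate 4, reached 883 CPM. Most of its raised markers were of the MGE list, but the CGE marker Nr2f2 was among its leading genes, so it stayed unnamed and outside the MGE sums. The folds given for MGE interneurons depend on this: with these cells counted among them, a setting chosen after seeing the data, the log2 fold change was 1.79 against excitatory neuron-like, 1.61 against RGC-like and 1.89 against IPC-like cells, all called by edgeR. The fold was also larger by more than 1.5 times at a Leiden resolution of 0.5, 2.07 against excitatory neuron-like and 2.20 against IPC-like cells.

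Part of the Efna5 signal came from single cells. In the excitatory sub-cluster led by Tafa1, Galntl6 and Pbx3 the libraries held 421 and 57.5 CPM, from 419 and 89 UMIs in 25 and 66 cells. 1 cell gave 22.9% of those UMIs in replicate 2 and 1 cell 38.2% in replicate 4. In replicate 2 the sub-cluster gave 419 of the 1004 Efna5 UMIs of the excitatory neuron-like class, and in replicate 4 89 of 1135.

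Of the receptors, Epha3 showed the widest range along the excitatory lineage. RGC-like cells held 93.4 and 140.2 CPM, IPC-like cells 1886 and 2256 CPM and excitatory neuron-like cells 1645 and 2303 CPM. Both RGC-like sums lay far below those of the other classes named, and the IPC-like and excitatory sums overlapped. edgeR called the rise from RGC-like to IPC-like cells (log2 fold change 4.23, SE 0.53, adjusted p = 8.71e-05) and the difference of excitatory neuron-like from RGC-like cells (log2 fold change 4.36, SE 0.54, adjusted p = 1.87e-05), in the fit reported and in all 15 alternatives, of which a Leiden resolution of 0.5 gave the smallest rise to IPC-like cells (3.43). Excitatory neuron-like and IPC-like cells were not told apart (log2 fold change 0.14, SE 0.47, adjusted p = 0.859 by edgeR). MGE interneuron-like cells held 966 and 1045 CPM, more than RGC-like cells (log2 fold change 3.29, SE 0.51, adjusted p = 1.68e-04 by edgeR), while their difference from excitatory neuron-like cells was not called (log2 fold change -1.08, SE 0.47, edgeR adjusted p = 0.14). Hem or choroid plexus-like cells had the lowest level of the 8 classes summed, 12.9 ± 1.71 CPM (SD, n = 2).

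Inside the classes the Epha3 level also varied from cluster to cluster. The 3 deeper RGC-like clusters lay between 76.5 and 158 CPM. IPC-like cells led by Eomes and Neurog2 held 1466 and 1620.5 CPM, IPC-like cells led by Kif26b and Unc5d 3608 and 4290.3 CPM, and the excitatory cluster led by Unc5d and Slc17a6 3303 and 4602 CPM. The cluster led by Rgs6 held 435 and 562 CPM. A smaller group within the excitatory clusters, the sub-cluster led by Tafa1, Pbx3 and Tfap2d (15 and 45 cells), held 4549 and 4497 CPM, in replicate 2 above all the clusters named here and in replicate 4 above all but that led by Unc5d and Slc17a6. These clusters were formed from the same cells and are a description without a test.

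**Figure D3:**
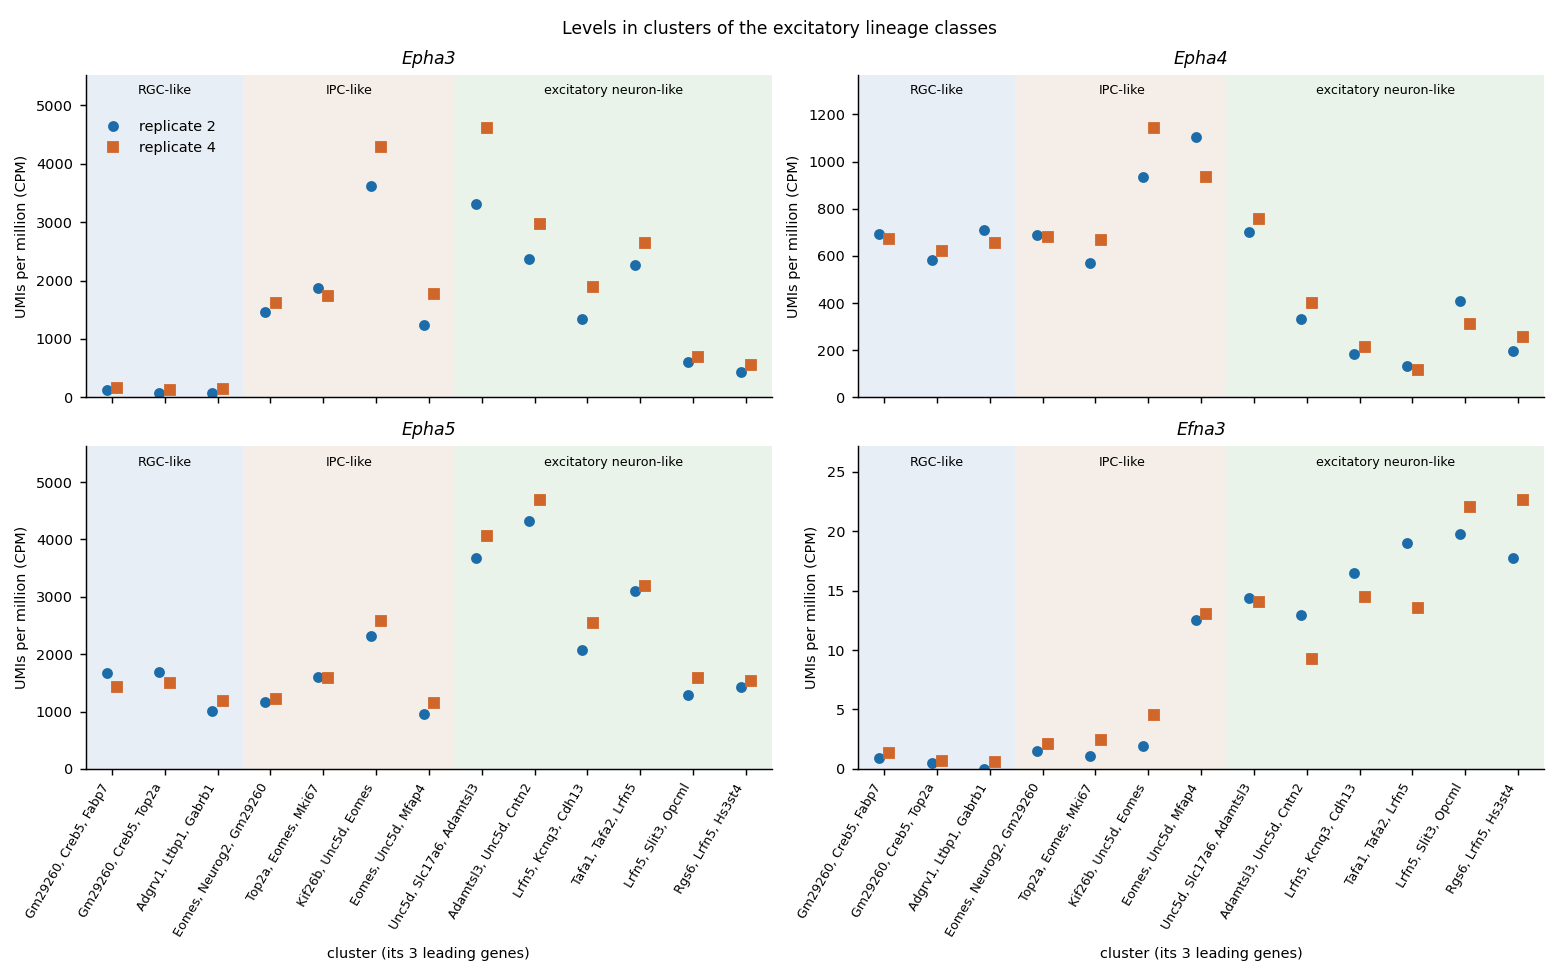
Levels of Epha3, Epha4, Epha5 and Efna3 in CPM (y axis, linear, separate for each gene) in 13 clusters of the excitatory lineage, from RGC-like to excitatory neuron-like (x axis, each named by its 3 leading genes); circles are replicate 2 and squares replicate 4, and the RGC-like cluster of low depth is not drawn. Of the clusters drawn, Epha3 is highest in the Kif26b and Unc5d clusters and is low in the Rgs6 cluster, where Efna3 is near its highest.

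The excitatory neuron-like cells were divided by fixed markers into newborn excitatory-like (122 and 232 cells) and deep-layer excitatory-like cells (38 and 77 cells), and 361 and 502 cells stayed without a sub-class. In this comparison 4 of the 7 members were called, where 35.7% of the 11476 genes tested were. Newborn cells held 3031 and 4264 CPM of Epha3 and deep-layer cells 462 and 488 CPM (log2 fold change -2.79, SE 0.21, adjusted p = 6.12e-05 by edgeR). Epha5 stood at 3872 and 4332 CPM in newborn and 1452 and 1485 CPM in deep-layer cells (log2 fold change -1.33, SE 0.15, adjusted p = 4.80e-04 by edgeR). For both receptors each deep-layer sum was below each newborn sum, and at a Leiden resolution of 0.5 the Epha3 log2 fold change was -2.19. Epha4 differed the same way, with 592 and 674 CPM in newborn and 193 and 266 CPM in deep-layer cells (log2 fold change -1.31, SE 0.18, adjusted p = 0.00112 by edgeR). At a Leiden resolution of 0.5, however, its log2 fold change was -0.25 and the call was lost (edgeR adjusted p = 0.449). Epha7 at 264 and 296 CPM and 233 and 199 CPM was not called (adjusted p = 0.261, edgeR). 3 of the 4 receptor members were therefore lower in deep-layer than in newborn cells in the fit reported. Both sub-classes come from embryonic day 14.5, so maturation and layer identity cannot be told apart in this difference.

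In the fit reported no ligand was called lower in deep-layer cells. Efna3 was 11.5 and 11.8 CPM in newborn and 15.3 and 23.8 CPM in deep-layer cells, a difference that edgeR called (log2 fold change 0.94, SE 0.27, adjusted p = 0.0312). The log2 ratio with 1 CPM added was 0.38 in replicate 2 and 0.95 in replicate 4, and the call was lost in 4 of 11 alternatives, while at a Leiden resolution of 2 the fold was 2.05. Efna5 at 33.5 and 58.6 CPM in newborn and 43.5 and 109.9 CPM in deep-layer cells was not called (log2 fold change 0.92, SE 0.40, adjusted p = 0.114 by edgeR). With the library as a replicate block it was (log2 fold change 0.85, edgeR adjusted p = 5.59e-04), and it turned to -1.30 with at most 5% mitochondrial UMIs and to -1.77 with doublets kept, settings that also redraw the sub-clusters. The direction of Efna5 in this comparison is therefore not fixed by these data. Efna2 had a log2 fold change 0.09, SE 0.19, adjusted p = 0.747 by edgeR.

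Epha4, a receptor that binds both ephrin-A and ephrin-B ligands, was lower in MGE interneurons than in the other 3 large classes. RGC-like cells held 621 and 634 CPM, IPC-like cells 792 and 832 CPM, excitatory neuron-like cells 308 and 351 CPM and MGE interneuron-like cells 85.9 and 119 CPM. The order IPC, RGC, excitatory, MGE held in both libraries with no overlap between classes, but the steps from RGC-like to IPC-like cells (log2 fold change 0.45, SE 0.42, adjusted p = 0.453 by edgeR) and from RGC-like to excitatory neuron-like cells (log2 fold change -0.65, SE 0.43, adjusted p = 0.221) were not called. Both progenitor classes exceeded MGE interneuron-like cells by edgeR (MGE against IPC: log2 fold change -2.88, SE 0.47, adjusted p = 3.57e-04; MGE against RGC: log2 fold change -2.43, SE 0.46, adjusted p = 7.56e-04). Excitatory neuron-like cells were also above MGE interneuron-like cells (edgeR adjusted p = 0.0143). The difference between excitatory neuron-like and IPC-like cells missed the threshold (log2 fold change -1.10, SE 0.43, adjusted p = 0.0656 by edgeR) and passed it in 11 of 15 alternatives. Among the IPC-like clusters, those led by Kif26b and by Mfap4 with Eomes and Unc5d held 936 and 1141 CPM and 1104 and 935 CPM, above the 689.7 and 682 CPM of the Neurog2 cluster in each library. The excitatory cluster led by Tafa1 held 135 and 114 CPM, the lowest of that class. Low Epha4 did not extend to every GABAergic class, since the striatal projection neuron-like cells of replicate 4 held 797 CPM, from 69 cells of 1 library.

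Epha5, a receptor abundant in the embryonic forebrain, was highest in MGE interneurons among the 8 classes summed. MGE interneuron-like sums were 5718 and 6058 CPM, those of excitatory neuron-like cells 2621 and 3006 CPM, of IPC-like cells 1409 and 1581 CPM and of RGC-like cells 1538 and 1399.9 CPM. MGE interneuron-like cells lay above excitatory neuron-like cells, and these above both progenitor classes, in each library, while the progenitor classes overlapped. edgeR called MGE interneuron-like against RGC-like cells (log2 fold change 2.18, SE 0.57, adjusted p = 0.00663) and against IPC-like cells (log2 fold change 2.08, SE 0.57, adjusted p = 0.0115). Against excitatory neuron-like cells the difference was not called (log2 fold change 0.96, SE 0.56, adjusted p = 0.27 by edgeR), nor was that of excitatory neuron-like from RGC-like cells (log2 fold change 1.22, SE 0.56, adjusted p = 0.0827). Of 15 alternatives, 2 called the first, among them the fit of only the compared classes, and 5 called the second. A missing call is thus no sign of equal levels here. Of the 8 classes summed, meningeal-like and hem or choroid plexus-like cells had the lowest levels, 139 ± 92.6 CPM and 66 ± 37.8 CPM (SD, n = 2), which did not differ beyond their spread. The CGE interneuron-like cells (5 and 32), too few to be summed, held 6323 and 4505 CPM, in replicate 2 above the MGE interneuron-like cells, with 68.8% of those UMIs from 1 cell.

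Epha7 was not called in any comparison of the fit reported. Of 15 alternatives it was called in 4 for MGE interneurons against IPCs, in 3 for excitatory neurons against RGCs, in 2 each for IPCs against RGCs and MGE interneurons against excitatory neurons, and in 1 for MGE interneurons against RGCs. RGC-like cells held 133 and 154 CPM, IPC-like cells 180.5 and 222 CPM, excitatory neuron-like cells 147 and 207 CPM and MGE interneuron-like cells 128 and 55.4 CPM. Excitatory neuron-like cells overlapped with both progenitor classes, and the MGE libraries differed from each other widely in this gene. Nearest to the threshold was MGE interneuron-like against IPC-like (log2 fold change -1.03, SE 0.40, adjusted p = 0.0587 by edgeR). The highest level was that of the meningeal-like cells, 434 and 707 CPM, above every other class in each library.

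Within the MGE interneuron-like cells the Epha5 level differed between sub-clusters, among them a pair led by Sst, the gene of somatostatin. The sub-cluster led by Nxph1 and Nxph2 (18 and 46 cells) held 10032 and 9463 CPM of Epha5, that led by Sst and Dpp10 (12 and 18 cells) 6205 and 5880.1 CPM, and that led by Sst, Nxph2 and Npy (24 and 20 cells) 2134 and 1749 CPM. The 3 sub-clusters did not overlap in either library. Of the pair led by Sst, the one with Dpp10 stood at the level of the class (5718 and 6058 CPM) and the one with Npy below it. Cells with a UMI of Sst (23 and 28) held 3465 and 3017 CPM of Epha5 and 496 and 685 CPM of Epha3. Cells without one (31 and 56) held 7650 and 8220 CPM of Epha5 and 1369 and 1299.9 CPM of Epha3. This division rests on a single Sst UMI in 4 and 9 of the Sst-positive cells. A Sst UMI was found in 42.6% and 33.3% of MGE interneuron-like cells and in 0.192% and 1.85% of the excitatory neuron-like cells, which should lack it (median 34768 and 25101 UMIs). The cells with a Sst UMI were deeper, with a median of 25713 and 15037 UMIs against 23396 and 9396, and the part of depth in the difference was not tested. Efna5 was 73.1 and 194 CPM in Sst-positive and 116 and 149.5 CPM in Sst-negative cells, and Epha4 73.1 and 41.7 CPM and 96.9 and 175 CPM. These values are a description without a test.

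**Figure D4:**
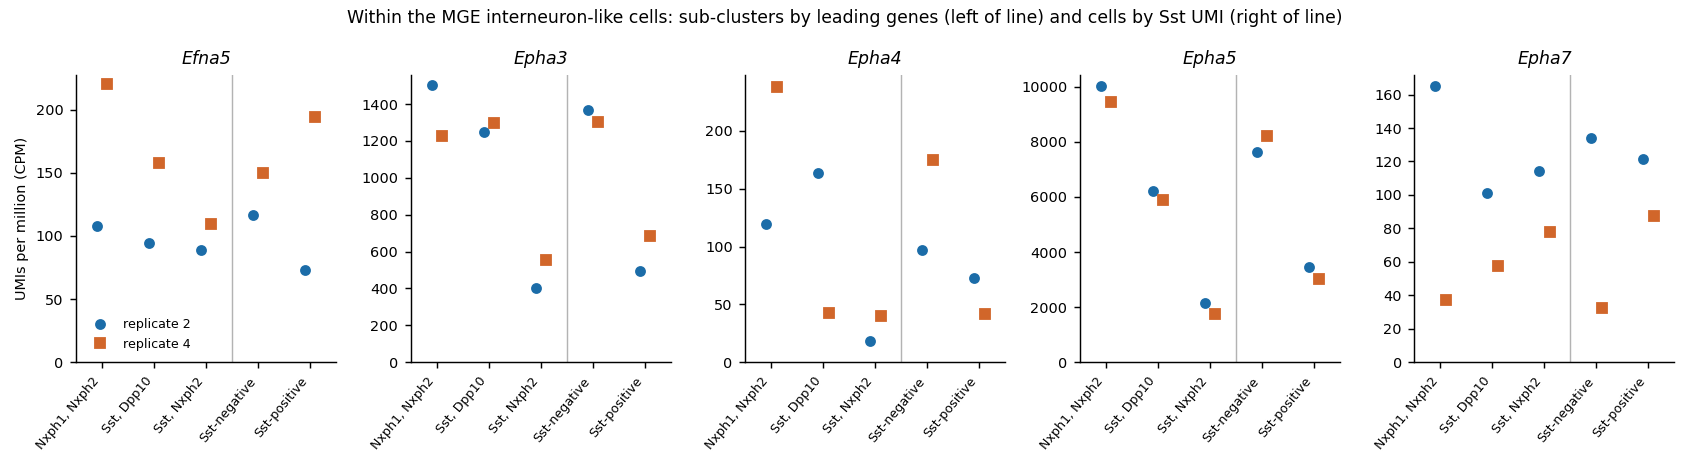
Levels of 5 members in CPM (y axis, linear, separate for each gene) within the MGE interneuron-like cells; left of the line are 3 sub-clusters named by their leading genes, right of it the cells without and with a UMI of Sst; circles are replicate 2 and squares replicate 4. The Epha5 points of the Sst and Dpp10 sub-cluster lie above those of the Sst, Nxph2 and Npy sub-cluster in both libraries.

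Progenitors were divided by cell cycle phase scores, from gene lists that hold no member. In RGC-like cells Epha3 was 125 and 273 CPM in the G1-like, 111 and 119 CPM in the S-like and 59.3 and 113 CPM in the G2/M-like cells. The G2/M-like cells held the least in each library. In replicate 2, 1 cell gave 48% of the 248 UMIs of the G1-like cells, so no order of the G1-like and S-like cells is read there. The RGC-like phase groups too sat in different clusters, and phase and cluster cannot be told apart in these values. The cluster led by Gm29260, Creb5 and Top2a held 55 and 129 of the 117 and 225 G2/M-like cells but 1 and 0 of the 95 and 101 G1-like cells, 29 and 15 of which were in the cluster of low depth. In the cluster led by Adgrv1 and Ltbp1 the G2/M-like cells (9 and 11) held 219.6 and 185 CPM of Epha3 and the G1-like cells 53.4 and 174 CPM, the reverse of the pooled order. This reversal rests on few cells of 1 cluster and is narrow in replicate 4. The orders within the other RGC-like clusters are not given here. In IPC-like cells Epha4 was 863 and 907 CPM, 570.2 and 563 CPM and 567 and 725 CPM in the same order. The phase groups of the IPC-like cells sat in different clusters, so phase and cluster cannot be told apart in these values. Of the 143 and 214 G1-like cells, 38 and 73 were in the Kif26b and Unc5d cluster, 28 and 52 in the Mfap4 cluster, 77 and 89 in the Neurog2 cluster and 0 in the cluster led by Top2a and Mki67, which held 24 and 41 of the 24 and 42 G2/M-like cells. Within the Neurog2 cluster Epha4 was 719 and 698 CPM in the G1-like and 533 and 614 CPM in the S-like cells (15 and 21 cells). Efna5 in RGC-like cells was lowest in the G2/M-like cells of both libraries, at 39.1 and 44.6 CPM, while the order of the G1-like and S-like cells (115 and 61.4 CPM, and 90.9 and 88.1 CPM) differed between the libraries. In the Adgrv1 and Ltbp1 cluster Efna5 was instead highest in the G2/M-like cells of both libraries, 73.2 and 81.5 CPM, against 36 and 48.5 CPM in the G1-like and 39.1 and 51.2 CPM in the S-like cells. This too rests on the 9 and 11 G2/M-like cells of 1 cluster, and the other RGC-like clusters are not given. Phase calls also read depth and free RNA, and no test was made.

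How many cells held a transcript was read after thinning each cell to 5000 UMIs, which left out 46 and 62 RGC-like cells and fewer of the other large classes. The share of cells with a UMI of Epha3 was 16.5% (12.4 to 21.4%) and 19.8% (16.1 to 23.9%) in RGC-like cells (95% exact binomial intervals, covering counting error only) and 82.4% (76.1 to 87.7%) and 86.5% (82 to 90.3%) in IPC-like cells. It was 87.8% and 88.7% in excitatory neuron-like and 73.6% and 81.8% in MGE interneuron-like cells. RGC-like cells thus stood apart in both libraries, in the share of cells with the transcript as in the level. Unthinned, the RGC-like share was 27.2% and 30.1%. An Epha4 UMI was present in 93.4% and 91.8% of IPC-like and 87.1% and 91.6% of RGC-like cells, in 59% and 62.6% of excitatory neuron-like cells and in 22.6% and 27.3% of MGE interneuron-like cells. Epha5 was found in 90.3% and 92.6% of RGC-like cells and in 100% and 100% of MGE interneuron-like cells. For the sparser ligands, an Efna5 UMI was present in 26.4% and 27.3% of MGE interneuron-like and 10.9% and 13.4% of excitatory neuron-like cells, and an Efna3 UMI in 7.18% and 7.89% of excitatory neuron-like cells but 0.719% and 1.16% of RGC-like cells.

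**Figure D5:**
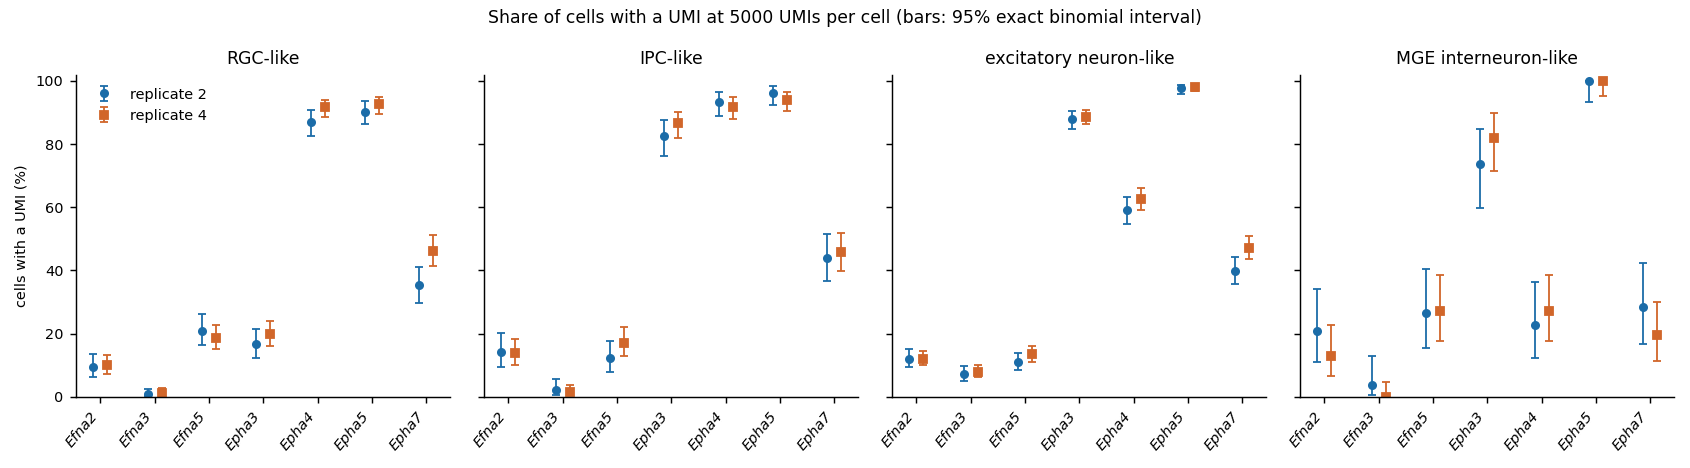
Share of cells with at least 1 UMI of each member (y axis, percent) in 4 classes after thinning to 5000 UMIs per cell; circles are replicate 2, squares replicate 4, and bars are 95% exact binomial intervals. Epha3 is found in few RGC-like cells and in most cells of the other 3 classes, and Epha4 in most progenitors and in 22.6% and 27.3% of MGE interneuron-like cells.

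Receptors were often found together in a cell. 3 or more of the 4 receptor members were found in 85.7% and 86.2% of IPC-like cells, 69.3% and 72.8% of excitatory neuron-like cells, 42.8% and 51.6% of RGC-like cells and 35.8% and 37.7% of MGE interneuron-like cells. IPC-like cells were the highest in both libraries and MGE interneuron-like cells the lowest. These shares were not set against those that separate detection of each receptor would give. They therefore do not show that receptors go together in cells beyond their separate shares. In the IPC-like, excitatory and MGE classes nearly every cell held a receptor, so the share with a ligand and a receptor was that with a ligand, up to 41.5% and 39% in MGE interneuron-like cells. Among RGC-like cells, 94.2% and 97.4% of which held a receptor, both kinds were found together in 27.3% and 27.4%.

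The level that free RNA may give was read in cells that should lack these genes. Hemoglobin-led barcodes below the gene minimum (57 and 67 barcodes, median 865 and 6712 UMIs) held 39.7 and 7.79 CPM of Epha5, 16.5 and 3.12 CPM of Epha3 and 3.31 and 3.12 CPM of Epha4, and 0 UMIs of the other members, where 3 UMIs would be 9.92 and 4.68 CPM. An Epha5 UMI was found in 14% and 5.97% of them and an Epha3 UMI in 8.77% and 2.99%, shares that stand beside the unthinned Epha3 share of the deeper RGC-like cells, 27.2% and 30.1%. The Epha3, Epha4 and Epha5 levels of the 4 large classes were above those of the hemoglobin-led barcodes. They were not all above those of the few retained cells of vessels and microglia. The endothelial-like cells (9 and 18) held 129 and 5.12 CPM of Epha3, in replicate 2 more than the RGC-like cells, with 68.4% of the 38 UMIs from 1 cell. They also held 71.5 and 35.8 CPM of Epha4, in replicate 2 near the 85.9 CPM of the MGE interneuron-like cells. The microglia-like cells (5 and 9) held 0 UMIs of Epha3 and, in replicate 4, 56.1 CPM of Epha4 and 112 CPM of Epha5, with 0 UMIs of both in replicate 2. The Efna3 levels of RGC-like and IPC-like cells lay below or near what 3 UMIs in the hemoglobin-led barcodes would give, so for this gene free RNA was not bounded there.

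Among the 15 other ephrin and Eph genes, 9 passed the filter in the class fit and 8 in the sub-class fit. Between IPC-like and RGC-like cells 5 of 9 (2 higher, 3 lower), 55.6%, against 32.8% of all genes, were called. Between excitatory neuron-like and IPC-like cells these were 5 of 9 (3 higher, 2 lower), 55.6%, against 34.4% of all genes, and between excitatory neuron-like and RGC-like cells 6 of 9 (4 higher, 2 lower), 66.7%, against 53.7% of all genes. MGE interneuron-like cells gave 4 of 9 (1 higher, 3 lower), 44.4%, against 20.2% of all genes, beside excitatory neuron-like cells, 6 of 9 (2 higher, 4 lower), 66.7%, against 50.6% of all genes, beside RGC-like cells and 7 of 9 (3 higher, 4 lower), 77.8%, against 38.4% of all genes, beside IPC-like cells. For deep-layer against newborn excitatory-like cells the count was 7 of 8 (3 higher, 4 lower), 87.5%, against 35.7% of all genes. With 8 or 9 genes tested, 1 gene moves such a share by over 10 percentage points. The median log2 fold change of those tested was -1.04 for MGE interneurons against excitatory neurons, beside -0.12 over all genes. Ephb1, a receptor of the ephrin-B side, was higher in deep-layer than in newborn neurons (691 ± 146 against 23.1 ± 5.01 CPM, log2 fold change 5.03, SE 0.24, adjusted p = 9.27e-06 by edgeR), opposite in direction to Epha3, Epha4 and Epha5. This was no split between the EphA and EphB sides. The EphA receptor gene Epha6 was also higher in deep-layer neurons (14.5 ± 4.3 against 1.07 ± 0.0712 CPM, log2 fold change 3.91, SE 0.44, adjusted p = 4.51e-04 by edgeR). Ephb6 was lower (4.24 ± 0.483 against 13.5 ± 1.32 CPM, log2 fold change -1.56, SE 0.35, adjusted p = 0.0111 by edgeR). Efnb3, an ephrin-B ligand, was higher in MGE interneuron-like than in excitatory neuron-like cells (43.2 ± 11.1 against 17.4 ± 1.88 CPM, log2 fold change 1.21, SE 0.23, adjusted p = 0.00261 by edgeR). The other 3 genes called there were lower, with larger changes in Ephb1 and the ephrin-A ligand gene Efna4. Ephb1 stood at 3.43 ± 3.72 against 222 ± 8.43 CPM (log2 fold change -6.15, SE 0.70, adjusted p = 5.59e-05 by edgeR). Efna4 stood at 0.865 ± 1.22 against 16.2 ± 2.02 CPM (log2 fold change -4.34, SE 0.62, adjusted p = 2.93e-04 by edgeR). Epha6, another EphA receptor gene, stood at 49.8 ± 26.6 against 3.37 ± 0.22 CPM, log2 fold change 4.09, SE 0.81, adjusted p = 0.0016 by edgeR in excitatory neuron-like against IPC-like cells. Ephb4, a receptor best known from vessels, was higher in RGC-like than in IPC-like cells (IPC against RGC: 5.72 ± 1.38 against 14.3 ± 1.15 CPM, log2 fold change -1.25, SE 0.25, adjusted p = 0.00232 by edgeR).

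Of the 33 genes of a signalling list, which holds mediators of Eph receptors such as guanine exchange factors, adaptors, kinases and phosphatases, 30 were tested in the class fit and 31 in the sub-class fit. Called were 11 of 30 (9 higher, 2 lower), 36.7%, against 32.8% of all genes, between IPC-like and RGC-like cells and 13 of 30 (8 higher, 5 lower), 43.3%, against 34.4% of all genes, between excitatory neuron-like and IPC-like cells. Between excitatory neuron-like and RGC-like cells they were 21 of 30 (16 higher, 5 lower), 70%, against 53.7% of all genes. MGE interneuron-like cells gave 7 of 30 (5 higher, 2 lower), 23.3%, against 20.2% of all genes, beside excitatory neuron-like cells, 19 of 30 (15 higher, 4 lower), 63.3%, against 50.6% of all genes, beside RGC-like cells and 12 of 30 (8 higher, 4 lower), 40%, against 38.4% of all genes, beside IPC-like cells. For deep-layer against newborn cells the count was 16 of 31 (10 higher, 6 lower), 51.6%, against 35.7% of all genes. In the IPC against RGC, MGE against excitatory and MGE against IPC comparisons these shares are near those of all genes and are no result about the list. Chn2, a Rac-inactivating chimaerin, rose with Epha3 from RGC-like to IPC-like cells (362 ± 37.4 against 94.9 ± 9.15 CPM, log2 fold change 2.01, SE 0.30, adjusted p = 3.06e-04 by edgeR). Ptpro, a phosphatase that acts on Eph receptors, was higher in excitatory neuron-like than in IPC-like cells (152 ± 21.9 against 20.8 ± 2.32 CPM, log2 fold change 3.07, SE 0.46, adjusted p = 2.09e-04 by edgeR), and Inppl1, a lipid phosphatase that binds Eph receptors, was lower (3.39 ± 0.277 against 24.3 ± 4.2 CPM, log2 fold change -2.63, SE 0.22, adjusted p = 3.17e-06). Nck1, an adaptor to the actin machinery, was higher in MGE interneuron-like than in excitatory neuron-like cells (63.3 ± 14.9 against 13.7 ± 3.18 CPM, log2 fold change 2.11, SE 0.29, adjusted p = 2.64e-04 by edgeR). Ntrk2, the BDNF receptor, was higher in deep-layer than in newborn cells (333 ± 38.2 against 21.1 ± 5.36 CPM, log2 fold change 4.14, SE 0.20, adjusted p = 8.63e-06 by edgeR), while Epha5 was lower.

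The genes whose pattern over the 16 class sums was most like that of each member were named by Pearson's r of log2(CPM + 10) among all 12933 genes. For the ligands these were Bicra (r = 0.939) for Efna2, Atxn10 (r = 0.963) for Efna3 and Commd10 (r = 0.883) for Efna5. For the receptors they were Dchs1 (r = 0.958) for Epha3, Rhbdl3 (r = 0.939) for Epha4, Fam172a (r = 0.939) for Epha5 and Cope (r = 0.909) for Epha7. None of these is a member of the family. Among the members the closest pair was Epha5 and Efna2 (r = 0.768), ahead of Epha3 and Efna2 (0.674) and of Epha5 and Epha3 (0.672), and the most opposed was Epha4 and Efna5 (-0.629). The 16 sums share 2 libraries and differ in depth, and the smaller classes weigh as much as the larger, so these values describe likeness only.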

How the data were processed

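Single-cell libraries (10x Genomics 3′ v3.1) had been processed with Cell Ranger 7.0.0 on mm10, per the labels, and the authors deposited raw UMI counts per gene and barcode; whether intronic reads were counted, and the annotation, are not given in the sources used here. Sample groups and replicate numbers came from the labels. Kept were barcodes holding 1000 genes or more and no more than 10% mitochondrial UMIs, less 14 and 15 doublets called by Scrublet (1.16% and 0.761%). In scanpy 1.11.5, 2000 variable genes other than ephrins and Ephs, 30 components and 20 neighbours gave 22 Leiden clusters (resolution 1), named where 3 or more markers of a list were raised (log2 ratio of 1) over the median cluster in 25% of cells or more. This scoring rule was set after first clusterings were seen. UMIs were summed per class and library, for classes of 10 or more cells in both, and tested with edgeR 4.0.16 (filterByExpr, TMM, quasi-likelihood, Benjamini-Hochberg): 16 sums, 8 residual degrees of freedom, and for sub-classes 4 sums, 2 degrees of freedom. SE came from the fold change and its F. Same-numbered sums stem from 1 library and are so paired; their deviations correlated with a median of 0.0894 over 28 class pairs (0.00976 to 0.318), of 0.226 over the 6 pairs of the 4 classes compared (0.118 to 0.318) and of 0.194 for the sub-classes. DESeq2 1.42.0, other filters, resolutions, thinning and a library block served as alternatives. Cell cycle lists came from Seurat 5.3.0. Named were all members and, per list and comparison, called genes among the 3 with the largest change of 1 sign in both libraries. Members and lists were chosen with earlier results of these data known.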

Additional observations from a re-analysis of the deposited data

Results flagged for a closer look

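The filter left out 501 and 618 barcodes, with a median of 940 and 1382 UMIs, that no comparison used, and every member was counted in them. Over these barcodes of both libraries the ligands stood at 20.3 CPM for Efna2, 6.35 CPM for Efna3 and 35.2 CPM for Efna5. The receptors stood at 293 CPM for Epha3, 244 CPM for Epha4, 853 CPM for Epha5 and 64.1 CPM for Epha7. There were no control samples to set these against, and each was above what 3 counts of the total would give. What these barcodes hold was not tested.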

How the results depend on the processing

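Of 700 log2 fold changes of members under the alternatives that could be tested, 605 kept direction and side of the threshold, 7 lost the call, 54 gained one and 34 changed sign. The library as a replicate block pairs sums of the same library and changed no other call than that of Efna5 in deep-layer against newborn cells (0.85, edgeR adjusted p = 5.59e-04). That Efna5 difference was also the only one to change sign with a call in the alternative (-1.30 with at most 5% mitochondrial UMIs, edgeR adjusted p = 0.0315, and -1.77 with doublets kept, adjusted p = 0.00926), and the cause was not tested. The other sign changes were of small differences (log2 fold change, setting), none of them called. The settings on the mixed sub-cluster of 17 cells, the GABAergic class lacking a sub-class and the RGC-like cluster of low depth were chosen after seeing the data. In IPC against RGC cells they were Epha5 -0.13 (at least 500 genes) and -0.37 (Leiden resolution 0.5). In excitatory against IPC cells they were Efna5 -0.067 (at most 5% mitochondrial UMIs), -0.070 (Leiden resolution 2) and -0.12 (thinned to 5000 UMIs), Epha7 -0.21 (Leiden resolution 0.5), -0.085 (Leiden resolution 2), -0.070 (split UMIs), -0.032 (no other classes in the fit), -0.050 (DESeq2 size factors), -0.049 (DESeq2 Wald test), -0.090 (mixed sub-cluster counted as MGE), -0.042 (no GABAergic class lacking a sub-class) and -0.090 (without the shallow RGC-like cluster), Epha3 -0.044 (Leiden resolution 2), Efna2 -0.024 (no other classes in the fit), -0.041 (DESeq2 size factors), -0.039 (DESeq2 Wald test), -0.072 (thinned to 5000 UMIs), -0.081 (mixed sub-cluster counted as MGE), -0.033 (no GABAergic class lacking a sub-class) and -0.081 (without the shallow RGC-like cluster). In excitatory against RGC cells they were Efna5 0.015 (split UMIs). In MGE against excitatory cells they were Efna2 -0.15 (at most 5% mitochondrial UMIs), -0.021 (split UMIs) and -0.061 (every gene with a count). In MGE against IPC cells they were Efna2 -0.11 (at most 5% mitochondrial UMIs), -0.012 (split UMIs) and -0.0039 (every gene with a count). In deep-layer against newborn cells they were Epha7 0.0039 (Leiden resolution 0.5) and 0.051 (Leiden resolution 2), Efna2 -0.071 (split UMIs). Of 101 counts of members called under the alternatives, 65 were the count reported, 4 were lower and 9 higher by 1 member without passing a ratio of 1.5, and 23 moved by more than 1.5 times. Those 23 are given with the share of all genes called under the same setting in brackets. With at most 5% mitochondrial UMIs, 1 in IPC against RGC (33.9%) and 2 in excitatory against IPC (38.5%). With no other classes in the fit, 5 in IPC against RGC (44.6%), 3 in excitatory against IPC (46%), 6 in excitatory against RGC (63.8%), 5 in MGE against excitatory (23.7%) and 5 in MGE against IPC (44%). With each cell thinned to 5000 UMIs, 1 in IPC against RGC (30.1%), 2 in excitatory against IPC (30.1%) and 5 in MGE against IPC (33.2%). At Leiden resolution 0.5, 3 in excitatory against IPC (39.9%). At Leiden resolution 2, 2 in excitatory against IPC (32.8%). With classes drawn from part of the UMIs and the test on the rest, 3 in excitatory against IPC (34.2%). With DESeq2 size factors, 2 in excitatory against IPC (34.5%). With the Wald test of DESeq2, 2 in excitatory against IPC (40.7%). With every gene of at least 1 count tested, 3 in excitatory against IPC (20.3%), 6 in excitatory against RGC (32.4%), 6 in MGE against excitatory (13.8%) and 5 in MGE against IPC (21.9%). Without the GABAergic class that had no sub-class, 3 in excitatory against IPC (37.7%), 4 in excitatory against RGC (56.2%) and 5 in MGE against IPC (40.9%). Without the RGC-like cluster of low depth, 2 in excitatory against IPC (34.7%). The number of genes called moved by more than 1.5 times as follows, where thinning leaves fewer UMIs by construction. With each cell thinned to 5000 UMIs, 2607 in IPC against RGC, 2599 in excitatory against IPC, 4368 in excitatory against RGC, 1585 in MGE against excitatory, 3889 in MGE against RGC, 2875 in MGE against IPC and 1899 in deep-layer against newborn. With no other classes in the fit, 6728 of 14627 genes tested in excitatory against IPC, above the 4448 of 12933 in the fit reported. That fit has fewer residual degrees of freedom, another set of genes tested and a spread estimated from the compared classes alone. Which of these moved the count was not tested. Without 1 of the libraries 98 ratios had no test: 44 moved by less than the SD between libraries and 54 by more, and 0 of those called changed sign. Of 308 class levels 61 moved by more than the SD between libraries, and of 56 shares 49, since thinning sets them. The contrasts with striatal projection neuron-like and CGE interneuron-like cells were not run, and settings that change only the class fit do not apply to the sub-classes. Depth limits Efna3 in MGE interneuron-like cells, where 6 and 0 UMIs were counted.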

Other observations

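GABAergic cells that took no sub-class (23 and 65 cells) came from different sub-clusters in the 2 libraries. The sub-cluster led by Top2a and Ccnd2 gave 8 and 44 of them, that led by Egfem1 and Etv1 15 and 4, and the unnamed sub-cluster of 17 cells 0 and 17. Over all of them Epha3 was 615 and 1934 CPM, Epha4 249.9 and 702 CPM, Epha5 403 and 1792 CPM and Efna5 124 and 297 CPM, values that cannot be told apart from this make-up. Within the Top2a and Ccnd2 sub-cluster alone Epha3 was 1405 and 2228 CPM, Epha4 517 and 891 CPM, Epha5 517 and 1305 CPM and Efna5 190.1 and 159 CPM. These cells were part of no comparison between classes, though they entered the fit. The RGC-like cluster of low depth (52 and 42 cells, median 4449 UMIs over both libraries) held 13.2 and 100.4 CPM of Epha3, 42.8 and 151 CPM of Epha4 and 191 and 169 CPM of Epha5. Left out of the fit, it did not change the direction of any called member.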
